A study of Rattus norvegicus with 24 samples.

Results

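The genes described here carry the signals that place lymphocytes in lymphoid tissue and keep B cells alive, in liver and spleen of rats given the alkylating cytostatic drug cyclophosphamide. The 10 genes looked for were 3 chemokine ligands (Cxcl13, Ccl19 and Ccl21), the lymphotoxin genes Ltb and Lta, the B cell survival factor Tnfsf13b, and the receptors Cxcr5, Ccr7, Tnfrsf13c and S1pr2. Each was matched by its symbol in the probe set annotation, and of several probe sets the brightest over all 24 arrays was taken. That gave 7 genes of 14201 named on the array. Ccr7, Tnfsf13b and Tnfrsf13c have no probe set that names them and were dropped. Cxcr5 and S1pr2 have a second probe set each, which is given beside the first.

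The rats were male Sprague-Dawley animals of wild type genotype, 46 to 49 days old. In each organ 4 groups of 3 rats were compared: cyclophosphamide without a wood stick, vehicle without a wood stick, cyclophosphamide with a wood stick, and vehicle with a wood stick. Cyclophosphamide was given by mouth at 40 mg/kg/day for 5 days, vehicle in the same way. RNA of the whole organ of each rat went to 1 Affymetrix array, so that liver and spleen of the same 12 animals gave 24 arrays.

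CXCL13 comes from stromal cells of the B cell follicle and draws in B cells through their receptor CXCR5, while CCL19 and CCL21 come from reticular cells of the T cell zone and draw in T cells and dendritic cells through CCR7. Lymphotoxin, a membrane complex of the Lta and Ltb products on lymphocytes, signals through the LTBR receptor on stroma and the alternative NF-kB pathway, which in mice is needed for normal follicles and for normal expression of these chemokines in spleen. BAFF, the Tnfsf13b product, keeps mature B cells alive through the Tnfrsf13c receptor, and S1PR2 holds B cells in the germinal centre in mice.

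In the RefSeq annotation of the GRCr8 build, Ccl19 (chromosome 5, 61759220 to 61761164) lies 15246 bases from Ccl21 (chromosome 5, 61776411 to 61777515). Lta (chromosome 20, 3622291 to 3625852) lies 6356 bases from Ltb (chromosome 20, 3632209 to 3634054). Cxcl13 is on chromosome 14 (13912858 to 13917920), and both receptors are on chromosome 8, Cxcr5 at 53738878 to 53756813 and S1pr2 at 27779452 to 27790344. The 250 bases before each gene's start in RefSeq's promoter table were searched on both strands for GGGANNTT. This is a broad letter pattern that takes in many sites of the NF-kB family. A longer pattern of the same family was searched as well, and its matches are not reported here. RefSeq's promoter table held 6 of the 7 genes and no entry for Cxcr5. The stretches of 4 genes follow because these genes moved in opposite directions in spleen, the 3 chemokines up and Ltb down. They are read 5′ to 3′ on the strand of the gene (the minus strand in all 4), with matches in capitals, and cover chr14:13917921-13918170 for Cxcl13, chr5:61761165-61761414 for Ccl19, chr5:61777516-61777765 for Ccl21 and chr20:3634055-3634304 for Ltb.
Cxcl13: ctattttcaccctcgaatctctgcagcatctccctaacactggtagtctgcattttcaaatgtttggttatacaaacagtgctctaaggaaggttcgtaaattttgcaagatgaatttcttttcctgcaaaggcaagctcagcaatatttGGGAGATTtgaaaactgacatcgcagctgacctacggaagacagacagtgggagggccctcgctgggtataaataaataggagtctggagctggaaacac
Ccl19: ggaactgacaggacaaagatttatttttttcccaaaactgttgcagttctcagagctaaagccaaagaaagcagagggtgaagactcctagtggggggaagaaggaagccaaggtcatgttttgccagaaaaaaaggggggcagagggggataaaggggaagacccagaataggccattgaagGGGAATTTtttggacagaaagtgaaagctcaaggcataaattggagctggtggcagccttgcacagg
Ccl21: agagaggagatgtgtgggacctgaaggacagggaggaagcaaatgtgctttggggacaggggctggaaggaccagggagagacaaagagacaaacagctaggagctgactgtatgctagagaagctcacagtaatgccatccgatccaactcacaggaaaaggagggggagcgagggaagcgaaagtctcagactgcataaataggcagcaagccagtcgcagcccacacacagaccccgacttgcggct
Ltb: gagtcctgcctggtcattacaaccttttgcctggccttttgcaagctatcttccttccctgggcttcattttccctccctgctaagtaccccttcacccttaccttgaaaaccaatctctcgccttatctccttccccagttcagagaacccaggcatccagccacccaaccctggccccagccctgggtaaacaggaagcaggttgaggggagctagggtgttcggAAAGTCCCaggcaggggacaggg
Cxcl13 held GGGANNTT at −100 to −93 from its start. Ccl19 held it at −67 to −60, both on the strand of the gene, and Ltb held it on the opposite strand at −23 to −16. Ccl21, Lta and S1pr2 did not hold it in this window. For Lta the window, chr20:3623277-3623526, lies within the gene span given above and not before it. Of 33469 promoters in the table, 13.012% held it on either strand. A match is a run of letters and no measurement of binding.

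Spleen arrays held 1021 to 1920 blank values among 30980 probe sets and liver arrays 4924 to 6060, with median intensities of 113.2 to 121.25 in spleen and 89.74 to 101.37 in liver. The spleen arrays fell into a set of 4 with 1778 to 1920 blanks, which holds 1 drug spleen without wood and all 3 vehicle spleens without wood, and a set of 8 with 1021 to 1183. The comparison of drug and vehicle with wood lies wholly within the set of 8, and vehicle with against without wood cannot be told apart from this division. Rat 2003, given the drug without wood, had the liver array with the highest number of blanks. Its correlation with the remaining liver arrays averaged 0.847, and no other liver array averaged below 0.906. Hepatocyte markers summed to intensities of 261.8 to 911.1 in spleen and 86396.4 to 100415.1 in liver. Pancreas markers reached a sum of 16948.1 in the spleen of rat 2003, against at most 1068.3 in vehicle spleens.

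On the first probe sets in spleen, the 3 stromal chemokines rose with cyclophosphamide, and the lymphotoxin genes and both receptors fell. This was 7 of 7 genes past an adjusted p of 0.05 (limma, 6 drug against 6 vehicle spleens, mean of the effects without and with wood), where 55.0% of all 13614 tested genes passed, 26.9% higher and 28.1% lower. The median change of the 7 was −0.22 on the log2 scale, and that of all genes −0.02. S1pr2 did not pass on its second probe set (−0.02, adjusted p = 0.953, limma), and Lta and S1pr2 did not pass with wood alone. In whole organs, fewer cells of a type and less RNA per cell cannot be told apart. In the plot of the genes by spleen, each gene is shown for its 12 arrays.

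**Figure D1:**
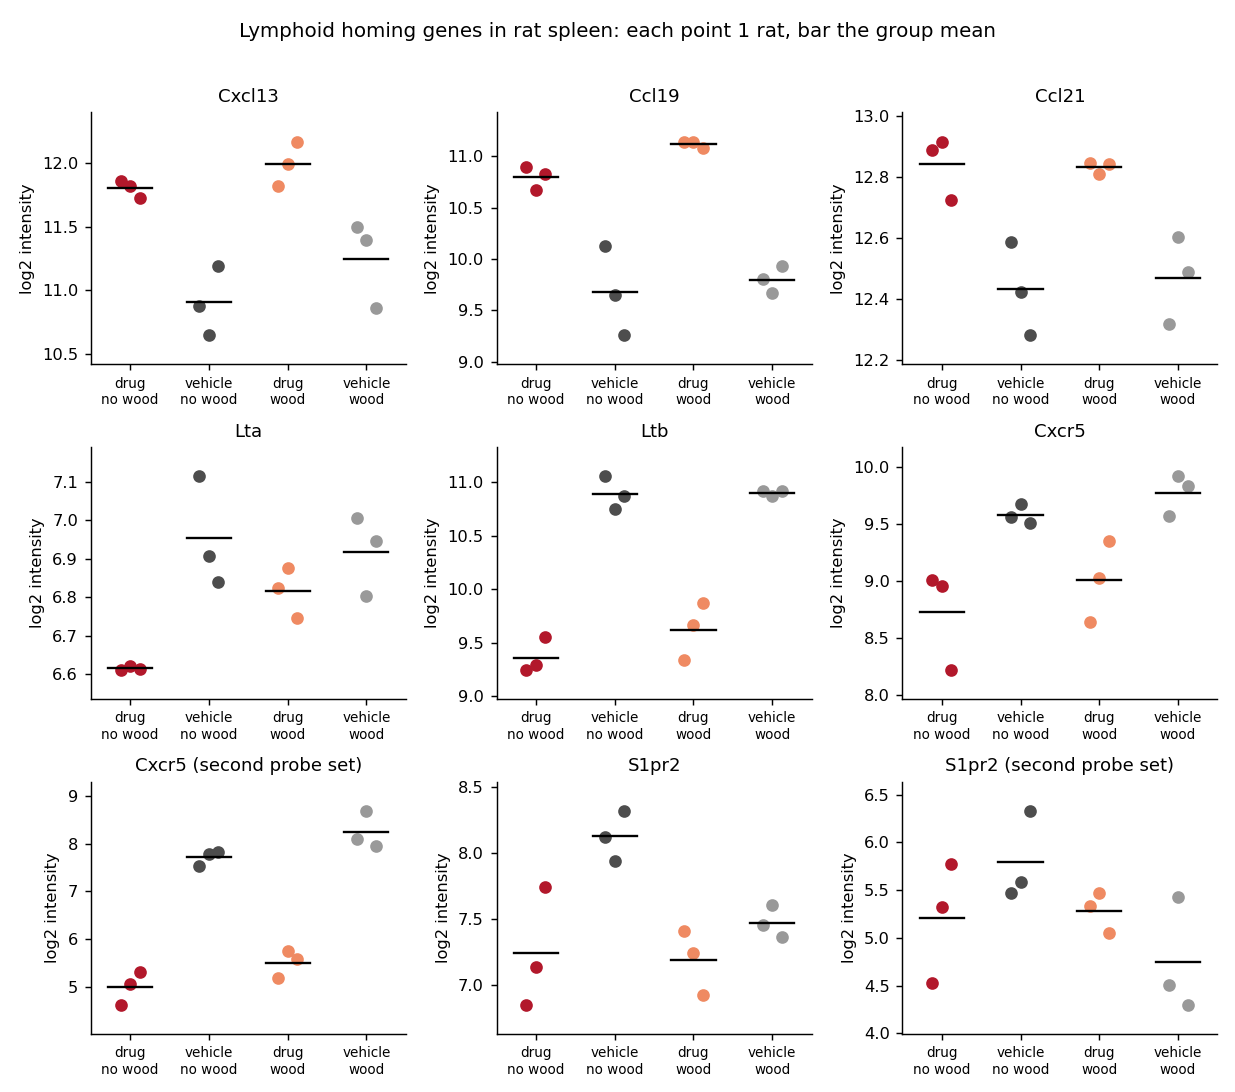
Log2 intensity (vertical axis) of the 7 genes and the second probe sets of Cxcr5 and S1pr2 in spleen, by group (horizontal axis, drug left of its vehicle), with 1 point per rat and a bar at the mean of 3 rats. All 6 drug spleens lie above all 6 vehicle spleens for Cxcl13, Ccl19 and Ccl21, and below them for Ltb and both probe sets of Cxcr5, while Lta and S1pr2 overlap.

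Ccl19, a ligand of the T cell zone, had the largest rise of the 7. Without wood it was at a log2 intensity of 10.89, 10.67 and 10.83 in drug spleens, against 10.12, 9.65 and 9.26 in vehicle spleens. With wood it was at 11.14, 11.14 and 11.08 in drug spleens, against 9.80, 9.67 and 9.93 in vehicle spleens. Every drug spleen was above every vehicle spleen, and the drug spleens with wood had an SD of 0.04. The change was 1.22 ± 0.13 (log2, SE), or 2.33-fold, with an adjusted p of 3.04e-05 in limma, and its size was 1.12 without and 1.32 with wood.

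Cxcl13, the follicular ligand of CXCR5, showed the same separation at a smaller size. Without wood its log2 intensity was 11.86, 11.82 and 11.72 in drug spleens, against 10.88, 10.65 and 11.19 in vehicle spleens. In the wood groups it was 11.82, 11.99 and 12.17 in drug spleens, against 11.50, 11.39 and 10.86 in vehicle spleens. The lowest drug spleen stood above the highest vehicle spleen, by a narrower margin than for Ccl19. The change was 0.82 ± 0.13 (log2, SE), or 1.76-fold, with an adjusted p of 0.000464 in limma. In order, Cxcl13 averaged 11.99 ± 0.17 in drug spleens with wood, 11.80 ± 0.07 in drug spleens without, 11.25 ± 0.34 in vehicle spleens with wood and 10.91 ± 0.27 in vehicle spleens without (SD, n = 3 each). The neighbours of equal treatment in this order were not separated: wood against no wood gave 0.19 in drug rats (adjusted p = 0.752) and 0.34 in vehicle rats (adjusted p = 0.217).

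Ccl21, the other CCR7 ligand of the T cell zone, rose least of the 3 ligands. Without wood its log2 intensity was 12.89, 12.91 and 12.73 in drug spleens, against 12.59, 12.42 and 12.28 in vehicle spleens. The values with wood were 12.84, 12.81 and 12.84 in drug spleens, against 12.32, 12.60 and 12.49 in vehicle spleens. The 2 treatments did not overlap. The change was 0.39 ± 0.07 (log2, SE), or 1.31-fold (adjusted p = 0.00142, limma). Within the wood groups alone it was 0.36 with an adjusted p of 0.020, which passed the threshold in 9 of 12 fits that each left out 1 rat and was 0.0769 without rat 3001, 0.0542 without 4001 and 0.0517 without 4005.

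Ltb, the subunit that ties lymphotoxin to the lymphocyte surface, had the largest fall of the 7 by the first probe sets. Without wood its log2 intensity was 9.24, 9.29 and 9.55 in drug spleens, against 11.06, 10.75 and 10.87 in vehicle spleens. Rats with wood had 9.33, 9.66 and 9.87 in drug spleens, against 10.92, 10.88 and 10.92 in vehicle spleens. No drug spleen reached the lowest vehicle spleen. The change was −1.41 ± 0.10 (log2, SE), which leaves 0.377 of the vehicle level (adjusted p = 3.03e-06, limma), with −1.53 without and −1.28 with wood.

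Lta, the subunit that is also secreted on its own as lymphotoxin alpha, fell least of the 4 genes that fell. Without wood its log2 intensity was 6.61, 6.62 and 6.61 in drug spleens, against 7.11, 6.91 and 6.84 in vehicle spleens. With wood it was 6.82, 6.87 and 6.75 in drug spleens, against 7.01, 6.80 and 6.95 in vehicle spleens. The groups without wood were apart, and those with wood overlapped. The change over both housings was −0.22 ± 0.06 (log2, SE; adjusted p = 0.0149, limma), while that with wood alone was −0.10 (adjusted p = 0.418). The fit with a trended and robust variance gave an adjusted p of 0.0651 over both housings. The 8 spleen arrays with few blanks allow the comparison with wood only, which was again −0.10 (adjusted p = 0.358).

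Cxcr5, the receptor that brings B cells and follicular helper T cells to CXCL13, fell by both of its probe sets, but by very different amounts. On the first probe set its log2 intensity without wood was 9.01, 8.95 and 8.22 in drug spleens, against 9.56, 9.67 and 9.51 in vehicle spleens. In the wood groups it was 8.64, 9.02 and 9.35 in drug spleens, against 9.57, 9.92 and 9.83 in vehicle spleens. The treatments did not overlap, although the drug spleens spread more widely. The change was −0.81 ± 0.16 (log2, SE), or 0.570 of the vehicle level (adjusted p = 0.00189, limma). With wood alone it was −0.77 (adjusted p = 0.0234), and it missed the threshold without rat 3003 (0.0762), 3005 (0.0649), 4001 (0.0877) or 4003 (0.054).

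The second probe set of Cxcr5 gave a log2 intensity of 4.63, 5.05 and 5.32 in drug spleens without wood, against 7.53, 7.79 and 7.83 in vehicle spleens without wood. With wood it gave 5.18, 5.76 and 5.58 in drug spleens, against 8.10, 8.67 and 7.96 in vehicle spleens. The gap between treatments was wider than the whole range within either. The change was −2.73 ± 0.17 (log2, SE), or 0.151 of the vehicle level (adjusted p = 1.34e-06, limma).

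S1pr2, a receptor for sphingosine 1-phosphate that in mice opposes migration of germinal centre B cells, passed the threshold on its first probe set and not on its second. On the first, its log2 intensity without wood was 6.85, 7.14 and 7.75 in drug spleens, against 8.12, 7.94 and 8.32 in vehicle spleens. The values with wood were 7.41, 7.24 and 6.93 in drug spleens, against 7.45, 7.61 and 7.36 in vehicle spleens. The groups without wood were apart and those with wood overlapped. The change was −0.58 ± 0.15 (log2, SE; adjusted p = 0.00882, limma), made up of −0.88 without wood (adjusted p = 0.00826) and −0.28 with wood (adjusted p = 0.346). With the division of the arrays by blanks as a batch term it was −0.33, and the change without wood was −0.38. The latter rests on 1 drug array, that of rat 2005, the only drug spleen without wood in the set of many blanks. With the mean of both probe sets the change over both housings was −0.30 (adjusted p = 0.237). On the second probe set it was −0.02 ± 0.27 (adjusted p = 0.953).

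Of the 7 genes, 5 did not overlap between the 6 drug and the 6 vehicle spleens, Cxcl13, Ccl19 and Ccl21 with drug above and Ltb and Cxcr5 with drug below. Over the 12837 genes with a value on all 12 spleen arrays, 31.2% did not overlap, 16.1% with drug above and 15.1% with drug below. Taken by housing, 7 of 7 genes were called without wood (background 45.1% of genes) and 5 of 7 with wood (38.4%), Lta and S1pr2 being the exceptions. The groups without wood differ in blanks, with 1 of 3 drug and 3 of 3 vehicle spleens in the set of many. With that division as a batch term, the change without wood rests on 1 drug array, that of rat 2005, against the vehicle spleens. It was then 0.82 for Cxcl13, 0.29 for Ccl21, −0.34 for Lta and −0.38 for S1pr2. With 1 drug array these values cannot show whether the changes depend on the division. The wood groups, in which Cxcl13, Ccl19, Ccl21, Ltb and Cxcr5 were called, hold arrays of few blanks only. In each of the 12 fits that left out 1 rat, rat 2003 included, 7 of 7 genes were called over both housings.

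**Figure D2:**
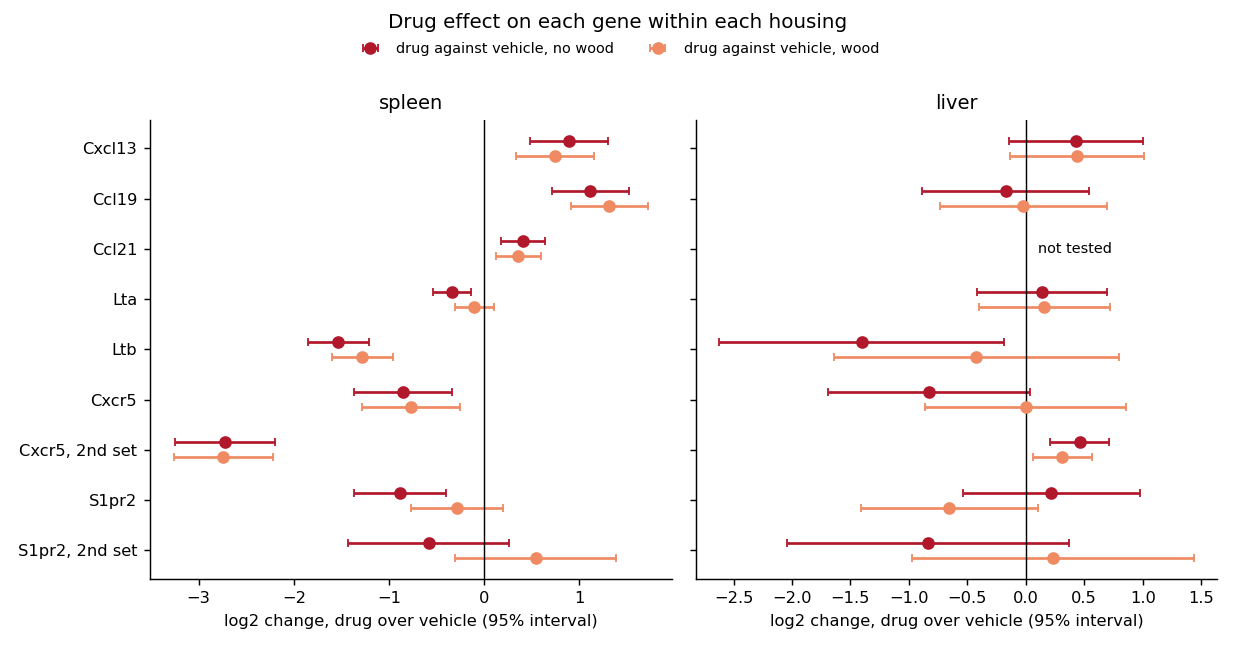
Log2 change, drug over vehicle (horizontal axis), of each gene without wood (dark) and with wood (light), in spleen (left) and liver (right); points are limma estimates and bars 95% intervals, and the 2 panels have their own scales. In spleen the 3 chemokines lie right of 0 in both housings, and Ltb and both probe sets of Cxcr5 left of it, whereas most liver intervals cross 0.

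Wood against no wood was taken as the mean over both treatments. It changed none of the 7 genes in spleen past the threshold (0 of 7 in limma, where 12.1% of all genes passed). At an unadjusted p under 0.05 there was 1 of 7, S1pr2. The share of all genes at an unadjusted cut is not reported here for any contrast, so such counts have no background. The vehicle part of wood against no wood cannot be told apart from the division by blanks. Neither the 12.1% nor the values of the 7 genes can therefore be read as wood alone. S1pr2 was at −0.35 (log2, wood over no wood; adjusted p = 0.143), with −0.65 in vehicle rats (adjusted p = 0.0684), the comparison that cannot be told apart from the division by blanks. With that division as a batch term the value in vehicle rats was 0.10. The size of that term comes only from drug rat 2005 against drug rats 2001 and 2003, so this value cannot separate wood from the division. The other 6 genes lay between 0.01 for Ccl21 and 0.27 for Cxcl13. The drug effect did not differ by housing for any of the 7 past the threshold (0 of 7, where 0.705% of genes passed, and 0 of 7 at an unadjusted p under 0.05). S1pr2 had the largest estimate, 0.60 with an interval of −0.08 to 1.28 (adjusted p = 0.435), and that of Cxcl13 was −0.15 with an interval of −0.73 to 0.43.

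In liver, none of the 6 genes that could be tested passed the threshold for the drug (0 of 6 in limma, where 0.812% of 12683 genes passed). At an unadjusted p under 0.05 there were 2, Cxcl13 and Ltb, with the share of all genes at that cut not reported here. The median change of the 6 was −0.16 on the log2 scale, against −0.02 over all genes. Ccl21 was blank on 7 of 12 liver arrays, among them all 3 of vehicle with wood, and was not tested. Its liver values were 5.89 in rat 2003, 4.06 and 3.57 in 2 drug rats with wood, and 3.03 and 2.32 in 2 vehicle rats without wood.

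**Figure D3:**
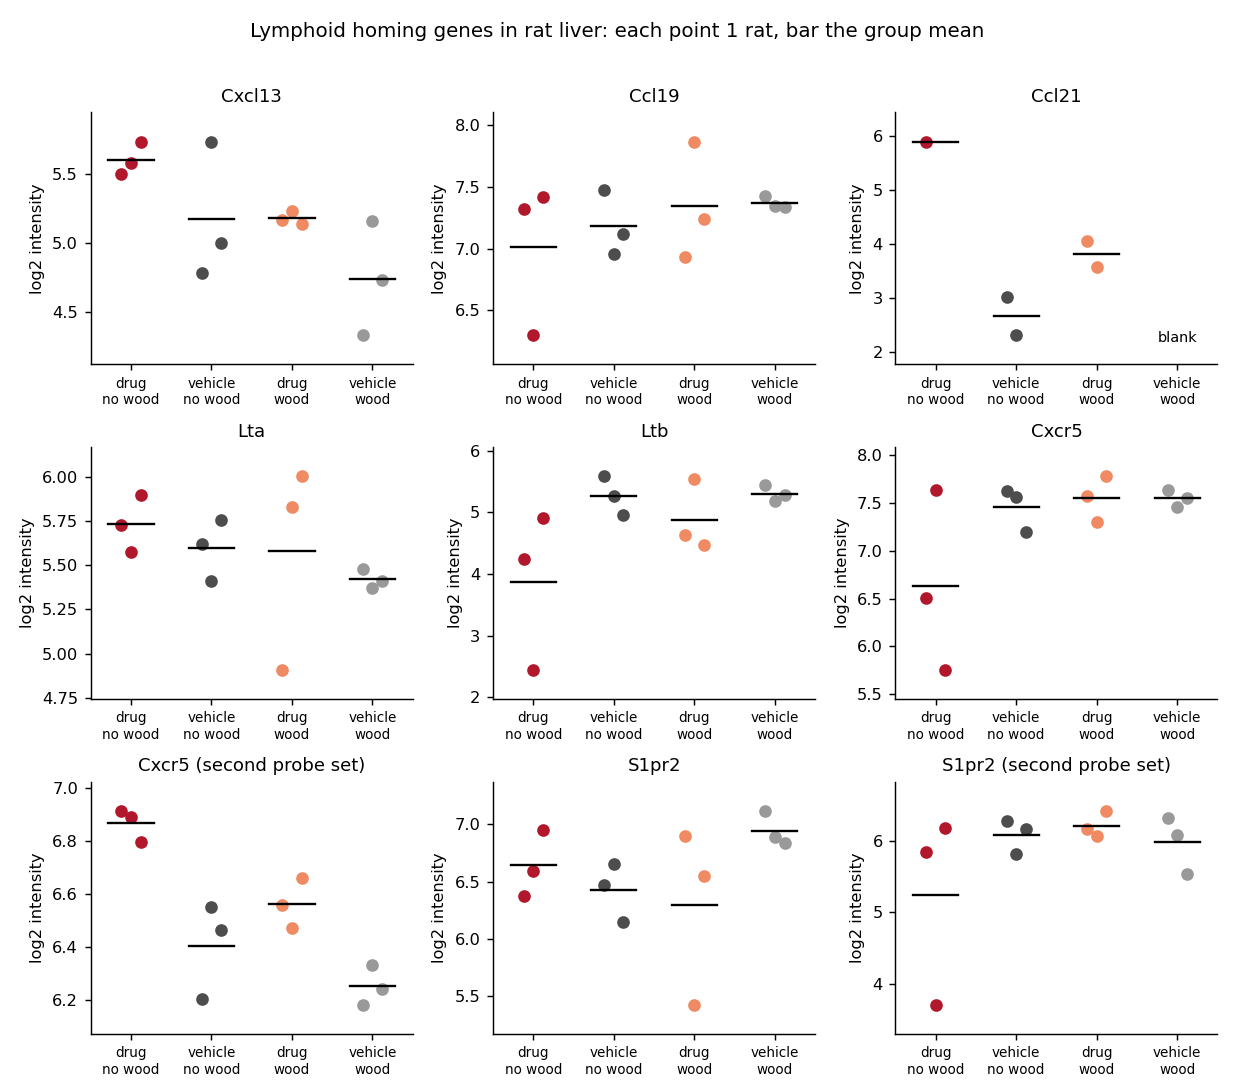
Log2 intensity (vertical axis) of the same genes and second probe sets in liver, by group (horizontal axis, drug left of its vehicle), with 1 point per rat and a bar at the mean of the values present. Drug and vehicle overlap for every gene with 12 values, Ccl21 has 5 values in all, and the lowest Ltb and Ccl19 points are those of rat 2003.

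Cxcl13 in liver had a log2 intensity of 5.50, 5.58 and 5.73 in drug livers without wood, against 4.79, 5.74 and 5.00 in vehicle livers without wood. Rats with wood had 5.17, 5.23 and 5.14 in drug livers, against 4.34, 5.16 and 4.74 in vehicle livers. 1 vehicle liver without wood was as high as the highest drug liver, so the treatments overlapped. The change was 0.43 ± 0.18 (log2, SE; adjusted p = 0.322, limma), with an interval of 0.03 to 0.84.

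Ltb in liver had a log2 intensity of 4.24, 2.44 and 4.91 in drug livers without wood, against 5.58, 5.26 and 4.96 in vehicle livers without wood. With wood it was 4.63, 5.54 and 4.47 in drug livers, against 5.45, 5.18 and 5.29 in vehicle livers. Without wood the drug livers were all below the vehicle livers, and with wood 1 drug liver was above them. The change was −0.91 ± 0.38 (log2, SE; adjusted p = 0.324, limma), and without rat 2003, the lowest liver, it was −0.56 (adjusted p = 0.306).

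The first probe set of Cxcr5 in liver gave a log2 intensity of 6.50, 7.64 and 5.76 in drug livers without wood, against 7.63, 7.56 and 7.19 in vehicle livers without wood. With wood it gave 7.57, 7.30 and 7.78 in drug livers, against 7.64, 7.46 and 7.55 in vehicle livers. Rats 2001 and 2005 were low and the rest lay together, and the change was −0.41 ± 0.27 (log2, SE; adjusted p = 0.531, limma). The second probe set went the other way, at 0.39 ± 0.08 (adjusted p = 0.0647). It gave 6.91, 6.89 and 6.79 in drug livers without wood, against 6.20, 6.55 and 6.46 in vehicle livers without wood. With wood it gave 6.56, 6.47 and 6.66 in drug livers, against 6.18, 6.33 and 6.24 in vehicle livers. The 2 probe sets gave opposite signs in liver, and neither passed.

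For Ccl19, Lta and S1pr2, drug and vehicle livers overlapped. Ccl19 ranged from 6.30 to 7.87 (median 7.28) in drug livers and from 6.96 to 7.48 (median 7.34) in vehicle livers, with a change of −0.10 ± 0.22 (log2, SE; adjusted p = 0.876, limma). Lta ranged from 4.91 to 6.001 (median 5.78) in drug livers and from 5.37 to 5.75 (median 5.45) in vehicle livers, with a change of 0.15 ± 0.18 (adjusted p = 0.744). S1pr2 ranged from 5.42 to 6.95 (median 6.58) in drug livers and from 6.14 to 7.12 (median 6.75) in vehicle livers, with a change of −0.22 ± 0.24 (adjusted p = 0.722). Wood and its interaction with the drug called 0 of 6 genes each in limma, with 0.0% of all genes called in either. At an unadjusted p under 0.05 wood had 1, Cxcl13 at −0.43 (adjusted p = 0.792), and the interaction 0. The share of all genes at that cut is again not reported here.

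Between the organs, the 6 genes tested in both were all higher in spleen than in liver in vehicle rats (6 of 6 in limma over 24 arrays, where 79.5% of 12474 genes passed, 59.2% higher in spleen, and the median over all genes was 0.72 on the log2 scale). Cxcl13 and Ltb stood farthest apart, with spleen over liver at 6.12 (log2, or 69.5-fold) and 5.61 (48.9-fold). Ccl19 was at 2.46, Cxcr5 at 2.17, Lta at 1.43 and S1pr2 at 1.11. In drug rats all 6 were again higher in spleen (79.6% of genes passed, 59.4% higher, median 0.69), at 6.50 for Cxcl13, 5.12 for Ltb, 3.78 for Ccl19, 1.77 for Cxcr5, 1.06 for Lta and 0.75 for S1pr2. S1pr2 in drug rats did not pass after quantile normalisation (0.40, adjusted p = 0.0927), after median centring (0.42, adjusted p = 0.0669) or with the mean of its probe sets (0.13, adjusted p = 0.607), and with that mean it was at 0.18 in vehicle rats (adjusted p = 0.494). Cxcr5 with the mean of its probe sets was at 0.15 in drug rats (adjusted p = 0.321). The second probe sets disagreed in part. That of Cxcr5 gave 1.65 in vehicle rats (adjusted p = 1.29e-09, limma) and, with liver higher, −1.46 in drug rats (adjusted p = 7.6e-09). That of S1pr2 had liver higher in both, at −0.76 in vehicle rats (adjusted p = 0.0483) and −0.48 in drug rats (adjusted p = 0.202).

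The drug effect itself differed between spleen and liver for 1 of 6 genes (33.1% of all genes passed this test). Ccl19 differed by 1.32 ± 0.27 (log2, SE, spleen effect minus liver effect; adjusted p = 0.000906, limma). For Cxcl13 the difference was 0.38 with an interval of −0.10 to 0.87 (adjusted p = 0.214), and for Ltb −0.49 with an interval of −1.35 to 0.37 (adjusted p = 0.384). Cxcr5 gave −0.40 (adjusted p = 0.378) on its first probe set and −3.11 (adjusted p = 7.3e-09) on its second. Lta was at −0.37 (adjusted p = 0.148) and S1pr2 at −0.36 (adjusted p = 0.364).

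The ligand was then set against its receptor within each array, as the log2 intensity of Cxcl13 minus that of Cxcr5. Of 8 planned comparisons of a ligand with its receptor, 2 could be made, since the other pairs lack a probe set for a partner. Only changes of this difference between groups can be read, because levels of different probe sets have no common scale. In spleen it was 2.85, 2.86 and 3.50 in drug rats without wood, against 1.32, 0.98 and 1.68 in vehicle rats without wood. In the wood groups it was 3.18, 2.96 and 2.81 in drug rats, against 1.92, 1.48 and 1.03 in vehicle rats. All drug spleens were above all vehicle spleens, and the difference was 3.03 ± 0.27 in drug spleens and 1.40 ± 0.37 in vehicle spleens (SD, n = 6 each). The change was 1.63, with a two-sided exact permutation p of 0.005 within housings, the smallest that 400 arrangements can give, and 0.01 adjusted over the 2 comparisons. Since Cxcl13 was higher and Cxcr5 lower in all 6 drug spleens, this p had to be the smallest. It adds no evidence to that of the single genes.

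With the second probe set of Cxcr5 the spleen change was 3.55, with drug spleens at 6.23 to 7.23 and vehicle spleens at 2.72 to 3.40. In liver the difference ran from −2.64 to −0.02 (mean −1.70 ± 0.99, SD) in drug rats and from −3.30 to −1.82 (mean −2.55 ± 0.54) in vehicle rats, with overlap. The liver change was 0.85, 1.26 without and 0.44 with wood, with an exact permutation p of 0.045, also 0.045 after adjustment. With the second probe set it was 0.05 (exact permutation p = 0.75). On the first probe set, 3 of the 12 permutation tests that each left out 1 rat kept an adjusted p under 0.05.

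**Figure D4:**
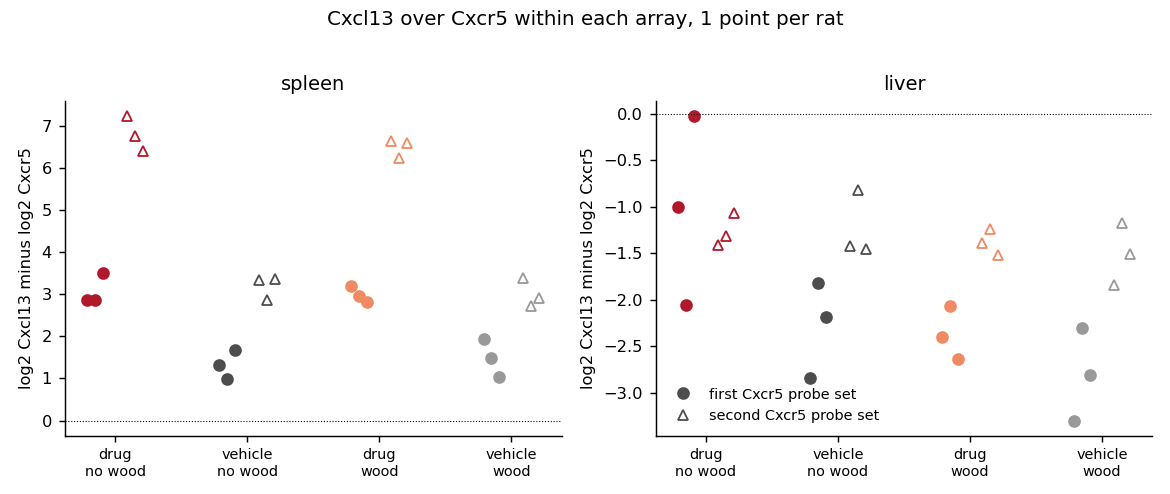
Log2 intensity of Cxcl13 minus that of Cxcr5 within each array (vertical axis), by group (horizontal axis, drug left of its vehicle), in spleen (left) and liver (right), with filled circles for the first and open triangles for the second Cxcr5 probe set and 1 point per rat. In spleen the drug rats lie above the vehicle rats with either probe set, while in liver the groups overlap with both.

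For each list in spleen, the shares over all genes are 26.9% higher and 28.1% lower. For each list in liver, the share is 0.812% in either direction. All 9 B cell markers with a probe set fell (9 of 9, median −3.53), with Cd79b, a chain of the B cell receptor, at −5.20, Ms4a1, the CD20 antigen, at −5.10, and Fcer2 at −4.25. Their summed intensity was 2955.1 to 3402.8 in drug spleens without wood, against 21967.6 to 24123.7 in vehicle spleens without wood. The values with wood were 2533.4 to 3913.1 in drug spleens, against 21853.0 to 28269.2 in vehicle spleens. No B cell marker was blank throughout a spleen group. In liver none of the 8 tested B cell markers passed, and their sum was 512.4 to 916.8 in drug livers without wood and 825.0 to 1086.2 in vehicle livers without wood. Livers with wood gave 664.9 to 804.3 under the drug and 939.2 to 1118.3 under vehicle, so that the sums overlapped without wood and not with it. The part of B cell content in the changes of Ltb, Cxcr5 and S1pr2 was not tested.

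Of 15 T cell markers, 3 rose and 6 fell in spleen (median −0.30, against −3.53 for the B cell markers), a share near the 55.0% of all genes called. Cd4, which macrophages of the rat also express, was at 1.16 (adjusted p = 3.21e-05, limma), and Il7r and Cd2 rose by 0.89 and 0.49. Lef1 fell by 0.74, Cd5 by 0.53 and Cd6 by 0.48. Cd3e, a chain of the T cell receptor complex, was at −0.18 (adjusted p = 0.357) and Cd8a at 0.05 (adjusted p = 0.728). The T cell sum was 11557.6 to 13454.0 in drug spleens without wood and 12067.7 to 14378.2 in vehicle spleens without wood, and it overlapped with wood as well. Of the germinal centre markers, 2 of 3 fell, Gcsam by 0.96 and Mef2b by 0.87.

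Of 19 genes of follicular and reticular stroma, 13 rose and 3 fell in spleen (median 0.67), led by Il7, the lymphocyte survival cytokine of reticular cells, at 1.99, Postn, a matrix protein, at 1.85, and Pdgfra, a growth factor receptor of fibroblasts, at 1.40. The 3 that fell, Bst1 at −4.17, Cr2 at −3.53 and Fcgr2b at −3.52, are also expressed by B lineage cells, and Cr2 is on the B cell list too. The sum of this list was 24135.6 to 27792.0 in drug spleens without wood, against 19266.3 to 20609.3 in vehicle spleens without wood. Rats with wood had 26463.2 to 30114.6 in drug spleens, against 21208.1 to 22572.1 in vehicle spleens. All 10 markers of red pulp macrophages rose (median 0.93), led by Spic, the transcription factor of these cells, at 1.39, the mannose receptor Mrc1 at 1.20 and the haemoglobin scavenger receptor Cd163 at 1.19. Of 7 endothelial markers 6 rose, led by Lyve1 at 1.29, Emcn at 1.05 and Stab2 at 0.93, and Vwf, von Willebrand factor, was at −0.77. The rises of Cxcl13, Ccl19 and Ccl21 occurred beside rises of several other non-lymphoid gene lists, and the part of tissue composition in them was not tested.

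**Figure D5:**
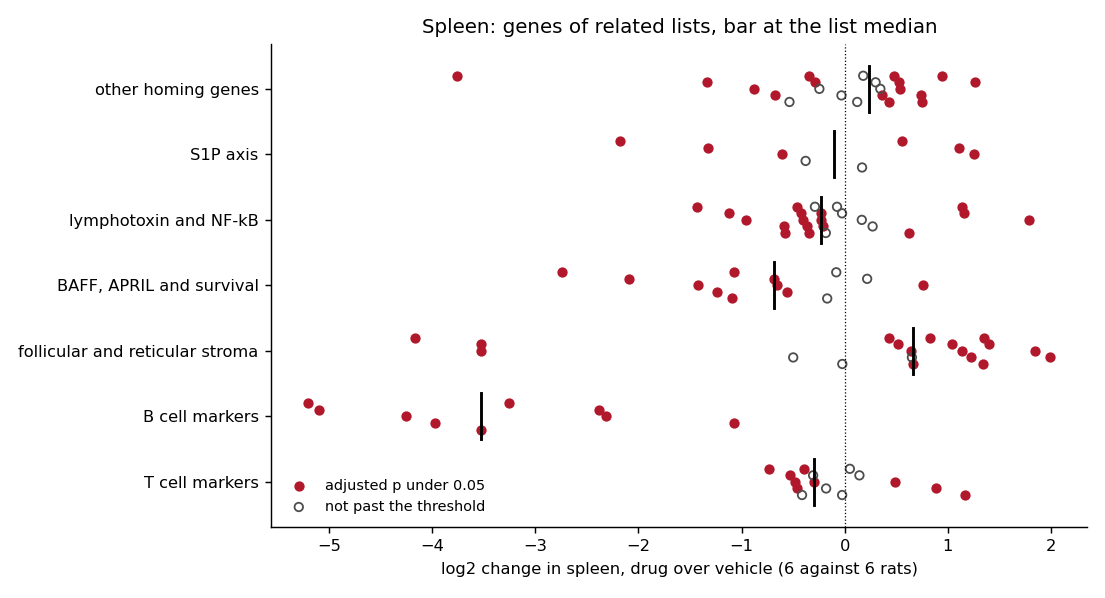
Log2 change in spleen, drug over vehicle (horizontal axis; mean of the effects in both housings, 6 against 6 rats), of each tested gene in 7 gene lists (vertical axis), with filled points past an adjusted p of 0.05, open points not, and a bar at each list's median. All B cell markers lie left of 0, most stromal genes lie right of it, and the 3 stromal genes far to the left are Bst1, Cr2 and Fcgr2b.

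Markers of other lineages changed as well. Of 7 erythroid markers 6 fell in spleen (median −3.25), led by the haemoglobin chaperone gene Ahsp at −6.71, the haem synthesis gene Alas2 at −6.65 and Hemgn at −5.89. Of 4 neutrophil markers 3 fell, Camp at −3.38, S100a8 at −2.04 and S100a9 at −1.99, and Cxcr2 rose by 0.60. Of 6 dendritic cell markers Flt3 was at −1.10 and Clec9a at −0.63, and Fscn1 rose by 0.87. None of 8 hepatocyte markers passed. Of 7 pancreas markers the elastase gene Cela1 rose, by 2.60 (adjusted p = 0.00364), at 7.30 to 10.76 in drug spleens against 5.13 to 7.26 in vehicle spleens, and the trypsinogen gene Prss1 was at 1.65 (adjusted p = 0.168).

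Of 22 other homing genes tested in spleen, 9 rose and 6 fell (median 0.24), where 26.9% of all genes rose and 28.1% fell, and 5 rose when genes below the median level were left out. Cxcl12, the stromal chemokine that retains lymphocytes and blood cell precursors, rose by 1.26 (adjusted p = 9.92e-06), at 12.46 to 12.72 in drug spleens against 11.06 to 11.73 in vehicle spleens. Its receptor Cxcr4 was at −1.33 (adjusted p = 4.39e-05), at 9.09 to 9.43 in drug spleens against 10.20 to 10.99 in vehicle spleens. Ccr6, a chemokine receptor of B cells, was at −3.76 (adjusted p = 1.76e-07), and the integrin subunit Itgb7 at −0.88. The decoy receptor Ackr2 and the integrin subunit Itgb2 rose by 0.94 and 0.75. In liver 1 of 21 passed, Itgal at −0.53 (adjusted p = 0.0187), and none without rat 1001 or without rat 1003, while Cxcl12 was at −0.09 (adjusted p = 0.743) and Cxcr4 at −0.76 (adjusted p = 0.113).

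In the lymphotoxin and NF-kB list, 4 of 23 genes rose and 13 fell in spleen (median −0.23), with 8 falls in the spleen arrays of few blanks, compared with wood only. Ltbr, the stromal receptor of lymphotoxin, rose by 1.16 (adjusted p = 8.9e-06), at 9.61 to 10.08 in drug spleens against 8.53 to 9.03 in vehicle spleens, while its ligand gene Ltb fell. Nkx2-3, a homeobox factor needed for normal spleen architecture in mice, rose by 1.78 (adjusted p = 1e-06), and the TNF receptor Tnfrsf1a by 1.14. The falls were led by Birc3, an inhibitor of apoptosis, at −1.43, Tnfrsf14, the receptor of LIGHT, at −1.12, and the adaptor Traf5 at −0.95. Nfkb2 was at −0.59, Relb at −0.42 and Map3k14 at −0.41, genes picked from the alternative pathway. Values of Chuk, Nfkb1 and Rela are not reported here, so no fall particular to that pathway can be read. In liver none of 21 passed, and Ltbr was at −0.09 (adjusted p = 0.794).

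The B cell survival list, from which Tnfsf13b and its receptor are missing, had 1 rise and 9 falls among 13 tested genes in spleen (median −0.69), with 2 rises without rat 4001. The rise was Tnfsf13, which encodes the BAFF relative APRIL, at 0.75 (adjusted p = 0.000141), with 9.67 to 10.17 in drug spleens against 8.92 to 9.29 in vehicle spleens. The falls were led by Cd40, a B cell costimulatory receptor, at −2.74, the kinase Pim2 at −2.09, and Tnfrsf17, a receptor of APRIL and BAFF on plasma cells, at −1.42. Bcl2 was at −0.08 (adjusted p = 0.390). In liver none of 12 passed, and Tnfsf13 was at −0.24 (adjusted p = 0.409).

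Among the genes of sphingosine 1-phosphate, the lipid that draws lymphocytes out of tissue, 3 of 8 rose and 3 fell in spleen (median −0.11). S1pr1, the exit receptor of lymphocytes, was at −1.32 (adjusted p = 5.91e-07), at 10.50 to 10.85 in drug spleens against 11.89 to 12.15 in vehicle spleens. S1pr5, a receptor found on natural killer cells, was at −2.18, and Arhgef1, which acts downstream of S1PR2, at −0.61. The exporter Spns2 rose by 1.25, the degrading lyase Sgpl1 by 1.11 and the kinase Sphk1 by 0.55. In liver none of 7 passed, and S1pr1 was at 0.05 (adjusted p = 0.895).

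In liver, the only stromal gene past the threshold was Il7, at 0.96 (adjusted p = 0.0159, limma), with 6.61 to 7.52 in drug livers against 5.77 to 6.23 in vehicle livers. No stromal gene passed with the mean of all probe sets or when genes below the median level were left out. Its second probe set was blank in all 6 vehicle livers and held a value in 4 of 6 drug livers. Of 10 macrophage markers 4 fell in liver, where 0.812% of all genes passed in either direction, led by C1qa at −0.96 and Adgre1 at −0.94. Of 3 germinal centre markers Gcsam fell by 1.33. Of 6 erythroid markers Alas2 fell, by 3.28 (adjusted p = 1.14e-05), at 4.37 to 5.30 in drug livers against 7.99 to 8.59 in vehicle livers. No dendritic, endothelial, neutrophil, T cell, hepatocyte or pancreas marker passed in liver, and Prss1 was at 0.32 (adjusted p = 0.482). Alb, the main product of hepatocytes, was at −0.04 (adjusted p = 0.836).

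The genes whose spleen pattern was most like each of 3 of these genes were taken by Pearson's correlation over the 12 spleen arrays, among 7073 genes with 12 values and a mean at or above the median. For Cxcl13 they were Map4k4 (0.953), Ntan1 (0.949), Lxn (0.948) and Fxyd2 (0.948). For Ccl21 they were Eps8 (0.975), Gamt (0.962), Pnp (0.959) and Ankrd46 (0.957). For the first probe set of Cxcr5 they were Ppif (0.977), Tubg1 (0.966), Polr2e (0.963) and Pou2f2 (0.956), the last a transcription factor of B cells. The 12 arrays share the split into drug and vehicle, so these values are a description of likeness only.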

How the data were processed

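The deposited series table was used. Per the labels' protocols, 5 µg of total RNA of each organ was labelled for a rat Affymetrix array. The values deposited by the authors were read as log10 intensities: without the extremes at each end they span 2143-fold when read so, and only 10.1-fold when read as log2. The summary of probes and the scaling are not stated in the labels or headers. Each value was multiplied by log2(10), with no further scaling, and 77831 of 743520 cells (10.5%) were blank and left missing. All columns were used.

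Of 30980 probe sets, 20792 name 1 gene, 436 several and 9752 none. Among probe sets of 1 gene, that of the highest mean log2(intensity + 16) was kept, blanks at 0. Testing needed a value in each group: 13614 genes in spleen, 12683 in liver, 12474 in both. Group means were fitted with limma 3.58.1 in R 4.3.3, 4 per organ over 12 arrays or 8 over 24, with Benjamini-Hochberg adjustment over all genes of a contrast. The drug effect is the mean of those without and with wood, and the interaction is with wood minus without. The fit was tested on simulated data. The pair of ligand and receptor was tested by exact permutation within housings. The precision is limited by 3 arrays per group, each from a different rat per the labels.

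The genes and gene lists were chosen with earlier results of these data known. Besides the 7 genes, the 3 largest rises and falls past the threshold of each list in spleen, 2 of each in liver, and a set of genes given whether or not they passed are named, with the likeness of 3 of 5 planned genes, as the other 2 have no probe set. Tnfrsf13b had no probe set. Sequences come from RefSeq (GRCr8). Animal numbers are shared by liver and spleen per the labels: over 10530 genes the deviations of an animal's organs correlated at −0.058 to 0.170, highest with its own in 11 of 12 animals. Alternatives were other scalings and offsets, other probe set choices, other variance models, each rat left out, and, chosen after seeing the data, the second probe sets.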

Additional observations from a re-analysis of the deposited data

Results flagged for a closer look

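The drug effect on Ccl19 differed between the organs. Spleen effect minus liver effect was 1.316 on the log2 scale (adjusted p = 0.000906, limma over 24 arrays), from 1.22 in spleen and −0.10 in liver. With each animal as a block the adjusted p was 0.00167. The lowest Ccl19 value in liver, 6.30, belongs to rat 2003, whose liver array stood apart from the others, and without that rat the liver effect was 0.08.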

How the results depend on the processing

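With 3 rats a group, and dim liver signals, small changes in liver cannot be seen. In spleen, 5 to 7 of 7 genes were called for the drug over all alternatives, and 7 in every fit without 1 rat; wood and the interaction called 0 in spleen and liver, and the drug 0 in liver, under each alternative that could be fitted. The arrays with few blanks cannot give wood or the interaction in spleen, and they give the drug effect with wood only. Spleen against liver in vehicle rats called 4 to 7 genes (7 needs Ccl21, which only the offsets of 16 and 64 admit), and 6 without any 1 rat. The count of drug effects that differ between organs was 1. It was 3 with an offset of 16 or of 64. With the mean of all probe sets, array weights or the second probe sets it was 2. Leaving out 1 rat gave 1 to 2. Animals pair the organs per the labels, and with the animal as a replicate block these 2 counts were 6 and 1, with no call changed. By gene, the difference of drug effects between organs passed in 24 of 24 alternatives for Ccl19 and in 3 of 24 for Ltb. It passed in 2 of 24 for Cxcl13 and for Cxcr5, in 2 of 23 for Lta and in 0 of 23 for S1pr2. The spleen change of Cxcl13 over Cxcr5 was 1.51 in the arrays with few blanks, which here are the wood groups alone. The adjusted exact permutation p was 0.1, the smallest possible there. Without 1 rat the spleen change was 1.52 to 1.74. The liver change was 0.65 with an offset of 16 (adjusted p = 0.06), 0.40 with 64 (0.095), 0.45 with the mean of probe sets (0.095), 0.81 after quantile normalisation (0.065) and 0.0481 with the second probe set (0.75), and 0.60 to 1.10 without 1 rat. The signs of spleen against liver turned on the second probe sets, at −1.46 for Cxcr5 and −0.48 for S1pr2 in drug rats and −0.76 for S1pr2 in vehicle rats. The cause of these changes was not tested.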
